A study of Drosophila melanogaster with 12 samples.

Results

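The comparison described here sets sorted gut cells that express SvbREP, the repressor form of the transcription factor Shavenbaby (Svb), against control cells, across all genes and by function. The deposited table held 8802 genes, of which 8296 had enough counts to be tested. It uses 6 of the 12 libraries of the series for its values, 3 of SvbREP and 3 of control, chosen by their labels alone. SvbREP flies carried myoIA-Gal4, UAS-GFP, tubGal80TS and UAS-Svb3Kmut::GFP, and control flies came from a cross of the same driver line to Canton-S, a wild-type strain without a UAS transgene. The other genotypes are UAS-SvbACT::GFP, the activator form (3 libraries), and UAS-SvbRNAi (3 libraries). Their levels are given only beside these values, but all 12 libraries entered the fit that gave the p-values. Every animal carried the driver, the GFP reporter and the temperature-sensitive Gal80. All were virgin females, induced for 6 days at 29 °C and dissected at 9 days of age. Guts of many females were pooled per batch, the posterior midgut (regions R3 to R5) was dissociated, and GFP-positive cells were sorted. The labels call them early enterocytes. Libraries of a genotype were made on different days, and the control cross also differed in its parental stock, so the transgene and the stock cannot be told apart. P-values therefore measure the spread between such batches.

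Svb is encoded by the gene ovo. The full-length protein represses transcription, and cleavage by the proteasome under the control of Polished rice peptides turns it into an activator. A form that cannot be cleaved stays a repressor. In the epidermis Svb is known for shaping cell protrusions, and in the midgut for maintaining stem cells and for enterocyte differentiation. The fly midgut epithelium holds stem cells, enteroblasts, absorptive enterocytes that digest and take up food, and enteroendocrine cells that release peptide hormones. myoIA-Gal4 is a driver used for enterocytes, so RNA of other cells in these libraries comes from cells that express the driver or from cells carried along in the sort. 

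The SvbREP libraries held 7652286, 5400403 and 3355847 counts in replicates 1, 2 and 3, and the control libraries 5572547, 5346713 and 3909657. Levels are given as CPM, read counts divided by the size of the library, with sizes adjusted by TMM, a method that balances libraries over most genes. A floor of 3 counts corresponded to 0.400 to 0.935 CPM in SvbREP and 0.565 to 0.780 CPM in control libraries, and covers counting error only. All 9 enterocyte markers examined were detected. Per kilobase of annotated exon, the median marker level was 25.9 CPM in SvbREP and 36.2 CPM in control libraries, where the median over all genes was 12.5 CPM and 11.9 CPM. Progenitor markers were also present, with a median of 134 CPM per kilobase in SvbREP and 185 CPM in control libraries. The progenitor transcription factor gene esg had 968 to 1170.1 CPM in SvbREP and 1275 to 1523 CPM in control libraries. The sorted cells therefore carried RNA of both enterocyte and progenitor markers in both genotypes.

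Transcripts of ovo, the gene the transgene encodes, were far above control in every SvbREP library. Raw counts were 4019, 1223 and 570 in the SvbREP libraries, against 63, 11 and 5 in the control libraries. This gives 313 ± 194 CPM in SvbREP and 5.09 ± 5.89 CPM in control (SD, n = 3 each, as for all means below). The log2 fold change of SvbREP over control was 5.88 (SE 0.70, edgeR quasi-likelihood test, adjusted p = 0.00186). The gene lies on X from 5048273 to 5070929, plus strand, in the dm6 assembly, and shares exon positions with lncRNA:CR44833. The counts do not separate transgenic from endogenous transcripts.

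Of 8296 genes tested, 100 passed the threshold of an adjusted p under 0.05, which is 1.21% of them. The 44 genes that rose are 0.53% of all tested and had a median log2 fold change of 1.66. The 56 genes that fell are 0.675% and had a median of -2.44. At an unadjusted p under 0.05 there were 1078 genes (13%). All 100 had CPM ranges that did not overlap between the SvbREP and control libraries, which held for 20.6% of all genes tested, and 89 changed by more than 2-fold. With library number as a block, 295 genes were called (3.56%), 120 higher (1.45%) and 175 lower (2.11%). All 100 kept their call and direction. The labels do not say what a shared library number means. The block rests on the correlations given with the processing below. The authors' deposited table called 258 genes, 98 higher and 160 lower, and 98 of the 100 were called there in the same direction.

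The number of calls depended on single libraries. It was 23 without SvbREP replicate 1, 25 without SvbREP replicate 2 and 42 without SvbREP replicate 3. It was 98 without control replicate 1, of which 59 were among the 100, 18 without control replicate 2 and 41 without control replicate 3. Of the 48 called genes named by a rule on size, level and function, 11 were called in every fit that tested them: ovo, DIP-alpha, AstA-R1, IRSp53, Syt4, CCHa2, CG6912, CG3984, asRNA:CR45600, CG7120 and CG14989.

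**Figure D1:**
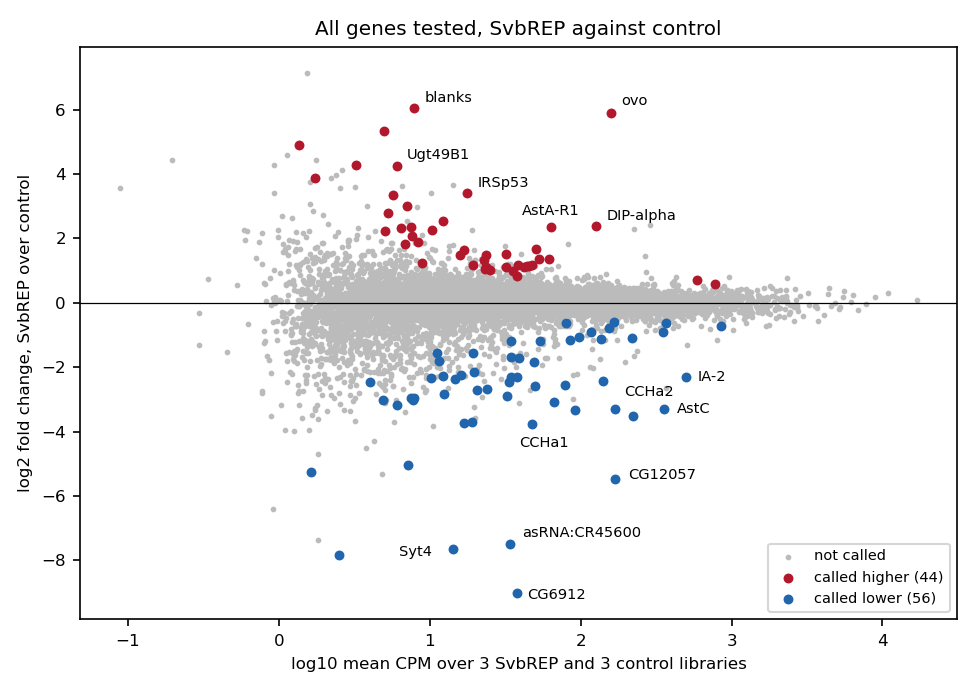
Mean level on the x axis (log10 CPM over 6 libraries) and log2 fold change of SvbREP over control on the y axis, for the genes tested except 1 with 0 counts in all 6 libraries. Red points are the 44 genes called higher and blue points the 56 called lower, with several of the named genes marked.

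Among the functional lists, enteroendocrine peptide hormone genes had the lowest median. Of 10 tested, 4 fell (40%, against 0.675% of all genes) and none rose. These 4 were the allatostatin genes AstA and AstC, and CCHa1 and CCHa2, which encode CCHamide peptides. The median log2 fold change over the 10 was -2.10, against 0.03 over all genes tested. In bulk libraries such as these, fewer cells of a type and less RNA per cell cannot be told apart. AstC had 31.7, 90.1 and 78.2 CPM in the SvbREP libraries, against 292, 953 and 699 CPM in the control libraries. AstA had 11.2, 19.9 and 19.3 CPM in SvbREP and 46.5, 326 and 124 CPM in control. For both genes even the lowest control library, number 1, lay above all 3 SvbREP libraries. The log2 fold change was -3.29 for AstC (SE 0.61, adjusted p = 0.0239) and -3.31 for AstA (SE 0.63, adjusted p = 0.0248).

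The CCHamide genes fell by a similar amount. CCHa2 averaged 31.9 ± 8.26 CPM in SvbREP and 308 ± 108 CPM in control (log2 fold change -3.29, SE 0.49, adjusted p = 0.0067). CCHa1 had 4.53, 7.94 and 7.17 CPM in SvbREP and 36.9, 157 and 72.2 CPM in control (log2 fold change -3.78, SE 0.51, adjusted p = 0.00344). The CCHamide genes held up better than the allatostatin genes when the fit was changed: CCHa2 was called in all 16 fits and CCHa1 in 15, against 11 for AstC and 10 for AstA.

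The remaining hormones did not pass the test, and several turned on control replicate 1. Tk, the tachykinin gene, had 12.7, 10.3 and 25.2 CPM in SvbREP and 1.88, 113 and 55.4 CPM in control. NPF, which encodes neuropeptide F, had 5.47, 5.91 and 4.68 CPM in SvbREP and 0.188, 21.4 and 7.28 CPM in control. Dh31, a diuretic hormone gene, had 4.13, 1.85 and 4.05 CPM in SvbREP and 0.377, 27.1 and 14.03 CPM in control. In these 3 genes control library 1 lay below, and control libraries 2 and 3 above, the SvbREP libraries. Mip, which encodes myoinhibitory peptides, had 0.800 to 8.73 CPM in SvbREP and 18.5 to 32.5 CPM in control, without overlap (log2 fold change -2.16, SE 0.65, adjusted p = 0.153). ITP, the ion transport peptide gene, had nearly equal levels of 217 to 262 CPM in SvbREP and 175 to 235 CPM in control. The number of hormone genes called was 2 without any 1 of the SvbREP libraries or without control replicate 2, and 4 without control replicate 1 and 3 without control replicate 3.

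Of 23 tested genes that process prohormones or act in regulated secretion, 5 fell (21.7%, against 0.675% of all genes) and none rose. The median log2 fold change was -1.81, and 19 lay below zero. With the block 13 fell, and with limma voom 2. Syt4, which encodes a synaptotagmin, a calcium sensor of vesicle fusion, had 2, 0 and 0 counts in the SvbREP libraries, against 158, 171 and 90 counts in the control libraries. Scaled to depth, the SvbREP over control ratio of the summed counts was 0.00426 (95% exact counting interval 0.000514 to 0.0155), with an adjusted p of 0.000622. Syt1, the synaptotagmin of synaptic vesicles, had 3.60, 4.80 and 6.23 CPM in SvbREP and 14.5, 31.7 and 27.5 CPM in control (log2 fold change -2.36, SE 0.39, adjusted p = 0.0136). The 2 synaptotagmins differed in form: Syt4 was close to absent in SvbREP, whereas Syt1 was lower but detected.

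The prohormone convertase gene amon had 8.94, 4.25 and 10.3 CPM in SvbREP and 25.8, 77.6 and 68.6 CPM in control (log2 fold change -2.89, SE 0.48, adjusted p = 0.0143). IA-2, a receptor-type phosphatase of dense-core vesicles, had 122, 115 and 268 CPM in SvbREP and 279, 1231 and 957 CPM in control, so that SvbREP replicate 3 and control replicate 1 nearly met (log2 fold change -2.29, SE 0.49, adjusted p = 0.0412). brp, which encodes the active zone protein Bruchpilot, averaged 11.6 ± 1.16 CPM in SvbREP and 57.4 ± 26.2 CPM in control (log2 fold change -2.29, SE 0.42, adjusted p = 0.0239). Among the 8 further genes called with the block were 7B2 and Pal2, which act in peptide maturation, and nSyb, Rab3 and Rim, which act in vesicle release. Some genes of the list had like levels in both genotypes. Among them, svr, a carboxypeptidase gene, had 292 to 351 CPM in SvbREP and 314 to 379 CPM in control. The gene unc-13 had 515 to 575 CPM in SvbREP and 510.5 to 544 CPM in control. The count of secretion genes called was 1 without SvbREP replicate 1, SvbREP replicate 2 or control replicate 2, 4 without SvbREP replicate 3, 3 without control replicate 3 and 11 without control replicate 1.

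**Figure D2:**
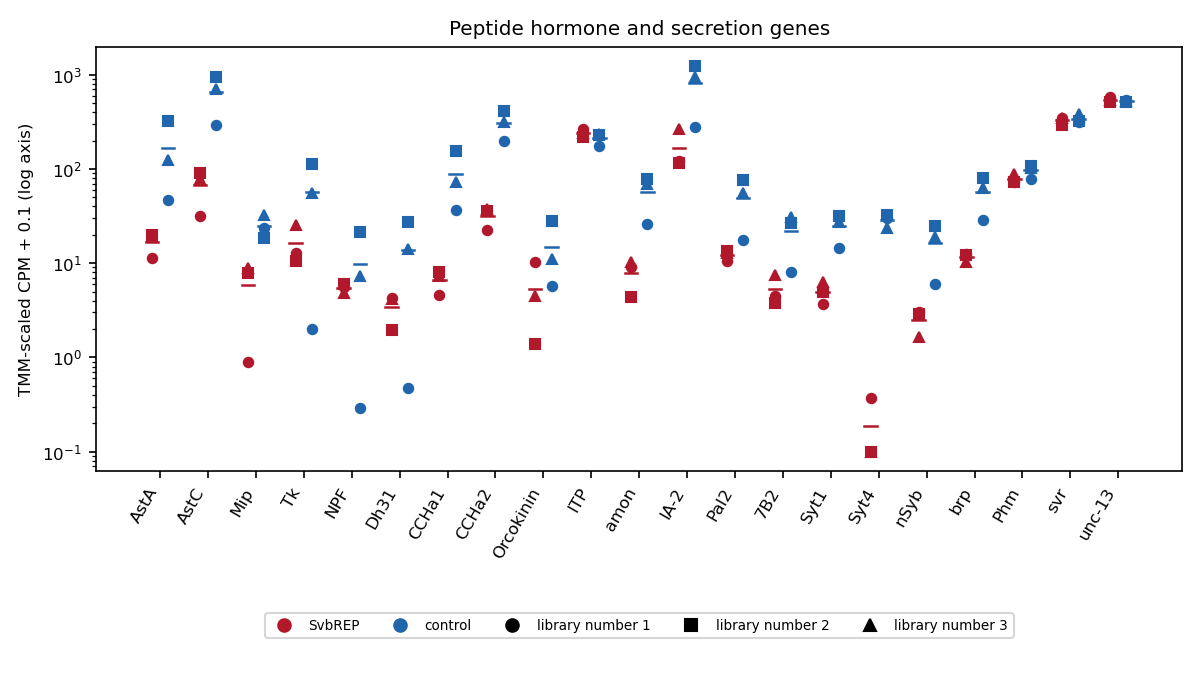
Level of each hormone gene and of 11 processing and secretion genes in the single libraries (TMM-scaled CPM plus 0.1, log axis), SvbREP in red left of control in blue, with a line at the mean of 3 libraries and symbols for library numbers. AstA, AstC, CCHa1, CCHa2 and Syt4 separate fully, Tk, NPF and Dh31 overlap through control library 1, and ITP, svr and unc-13 lie level.

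Several ion channel and signalling genes were also among the 56 that fell; all but SK were singled out after their values were seen. Ca-alpha1D, a voltage-gated calcium channel subunit, had 3.60, 5.17 and 11.2 CPM in SvbREP and 12.1, 65.2 and 46.3 CPM in control (log2 fold change -2.68, adjusted p = 0.0489). stj, a calcium channel accessory subunit, fell by 2.95 on the log2 scale (adjusted p = 0.0289). SK, a calcium-activated potassium channel, had 0.935 to 2.03 CPM in SvbREP and 5.09 to 21.6 CPM in control (log2 fold change -3.03, SE 0.66, adjusted p = 0.0469). CngA, a cyclic nucleotide-gated channel gene, had a log2 fold change of -2.85 and Ac78C, an adenylyl cyclase gene, of -2.27. 5-HT2B, a serotonin receptor gene, had 1.47 to 1.87 CPM in SvbREP and 5.47 to 18.9 CPM in control (log2 fold change -2.94, adjusted p = 0.0248). The neprilysin-type peptidase genes Nep1 and Nep3 had log2 fold changes of -1.83 and -1.17. In each of these genes control replicate 1 was the lowest control library and control replicate 2 the highest, as in AstA, AstC, CCHa1 and CCHa2.

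Regulators of enteroendocrine fate gave no call. Of 12 tested, 0 passed by edgeR or limma voom, 2 by DESeq2 and 5 at an unadjusted p under 0.05 (13% of all genes). The median log2 fold change was -0.45, and onecut fell with the block. pros, the homeobox gene that marks enteroendocrine cells, had 53.7, 48.0 and 41.5 CPM in SvbREP and 51.3, 125 and 78.7 CPM in control. Its log2 fold change was -0.83 (SE 0.27, adjusted p = 0.193), smaller than that of the hormones, and the groups overlapped through control replicate 1. dimm, a bHLH gene of peptidergic cells, had 1.29 to 2.53 CPM in SvbREP and 0.377 to 9.75 CPM in control. The proneural genes sc and ase lay above zero, at log2 fold changes of 1.09 and 3.06, but with at most 10.1 CPM in any SvbREP library.

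Markers of other cells moved in the same libraries. The 10 enteroendocrine markers summed to 157, 229 and 231 CPM in SvbREP and to 657, 2183 and 1407 CPM in control. All of these markers but pros are also in the hormone list, so this sum largely restates the hormone levels. The 8 visceral muscle markers, among them Mhc, the myosin heavy chain gene, summed to 33.6, 269 and 143 CPM in SvbREP and to 173, 1024 and 868 CPM in control. None of the 8 muscle markers was called by edgeR, DESeq2 or limma voom, and 5 had an unadjusted p under 0.05 (13% of all genes). The median log2 fold change of the 8 was -2.23, and with the block 3 fell (Mhc, up and sls). The 4 neuron markers in the table summed to 106 to 137 CPM in SvbREP and to 181 to 242 CPM in control, and brp, shared with the secretion list, was the 1 called of 3 tested. Control replicate 2 had the highest and control replicate 1 the lowest sum of each of these 3 lists among control libraries. Enterocyte markers overlapped, at 1127 to 2088 CPM in SvbREP and 1056 to 1867 CPM in control. Whether a different share of enteroendocrine, muscle or nerve cells in the sorts set the levels of the hormone, secretion and channel genes was not tested.

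In a list of mitosis genes, 14 of 61 rose (23.0%, against 0.53% of all genes) and none fell. The list was written after the called genes had been seen, so its counts are a description. Of the 61, 57 had a log2 fold change above zero, and the median was 0.82. With the block 19 rose, adding polo, CycA, Spc105R, Incenp and sti, and with limma voom 4. pav, a kinesin of the central spindle, had 45.2, 27.0 and 32.1 CPM in SvbREP and 13.2, 9.36 and 14.8 CPM in control (log2 fold change 1.49, SE 0.25, adjusted p = 0.0141). asp, a spindle pole protein gene, had 58.5, 44.3 and 38.3 CPM in SvbREP and 13.4, 14.1 and 22.3 CPM in control (log2 fold change 1.52, SE 0.26, adjusted p = 0.0186). For both genes the lowest SvbREP library lay well above the highest control library.

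Other members that rose act at the kinetochore, the site where microtubules bind chromosomes, or in its checkpoint. Kmn1, a kinetochore protein gene that shares exon positions with CG11699, had 8.40, 12.4 and 6.86 CPM in SvbREP and 0.754, 2.10 and 1.04 CPM in control (log2 fold change 2.80, SE 0.49, adjusted p = 0.0195). rod and BubR1, of the spindle checkpoint, had log2 fold changes of 1.11 and 0.84, and cmet, a kinetochore kinesin, of 1.15. thr, which acts with separase in sister chromatid release, and Cap-D2, a condensin subunit, had log2 fold changes of 1.65 and 1.11. mud, ncd and feo, of the spindle, rose by 1.17, 1.01 and 1.32 on the log2 scale. Members with no call included polo, a mitotic kinase gene, with 40.3 to 60.4 CPM in SvbREP and 11.1 to 29.1 CPM in control (adjusted p = 0.0635), and Bub1 and Mad1, whose levels overlapped. Of the 4 members with a log2 fold change below zero, Mis12, a kinetochore gene, had CPM below every control library in all 3 SvbREP libraries (log2 fold change -1.40, SE 0.59, adjusted p = 0.330).

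The separate list of cell cycle and DNA replication genes shares CycA, CycB, CycB3, Cdk1, stg, polo, aurA and aurB with the mitosis list. It had 3 of 27 called (11.1%, against 1.21% of all genes), all higher, and a median of 0.70. PCNA, the replication clamp, had 50.0, 48.7 and 42.1 CPM in SvbREP and 22.0, 26.9 and 22.9 CPM in control (log2 fold change 0.97, SE 0.19, adjusted p = 0.0296). Cdk1, the mitotic kinase, had 17.1, 15.0 and 7.48 CPM in SvbREP and 3.39, 2.48 and 4.94 CPM in control (log2 fold change 1.90, SE 0.41, adjusted p = 0.0456). stg, the Cdc25 phosphatase that starts mitosis, averaged 12.4 ± 3.29 CPM in SvbREP and 5.30 ± 0.714 CPM in control (log2 fold change 1.24, SE 0.27, adjusted p = 0.0484). With the block 7 were called, adding polo, CycA, Mcm5 and Mcm6. E2f1, CycD and fzr, which act in the G1 phase and in endocycles, had log2 fold changes of -0.15, -0.03 and -0.16.

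The mitotic calls were sensitive to the libraries used. In the mitosis list, 0 were called without SvbREP replicate 1, 3 without SvbREP replicate 2, 5 without SvbREP replicate 3, 4 without control replicate 1, 1 without control replicate 2 and 8 without control replicate 3. In the 27 cell cycle genes the corresponding counts were 0, 0, 1, 0, 0 and 2. With the 6 SvbREP and control libraries fitted alone, 0 genes of either list were called, and with the block in these 6 libraries 17 and 4 were. The median of the mitosis list lay between 0.60 and 0.94 in all 16 fits. Levels of the progenitor markers summed to 6163 to 7074 CPM in SvbREP and 7764 to 8055 CPM in control. The most abundant of these markers were hdc and zfh2, and Dl lay the other way. The part of progenitor cells in the mitotic levels was not tested. Dl, the Notch ligand gene of stem cells, had 460.4, 308 and 301 CPM in SvbREP and 161, 166 and 223 CPM in control (log2 fold change 0.96, SE 0.22, adjusted p = 0.0629, and 0.0254 with the block). hdc and zfh2, the 2 most abundant genes of the progenitor list, had log2 fold changes of -0.16 and -0.46 (adjusted p = 0.754 and 0.360).

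**Figure D3:**
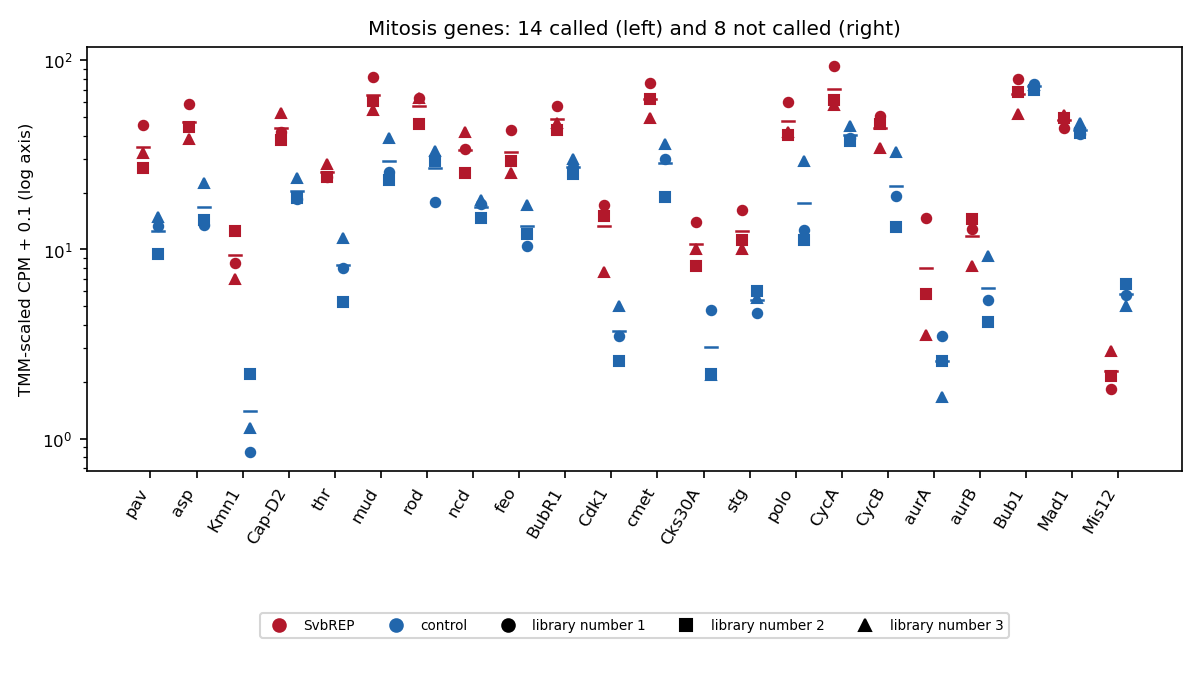
Level of the 14 called mitosis genes and of 8 uncalled members in the single libraries (TMM-scaled CPM plus 0.1, log axis), SvbREP in red left of control in blue, with a line at each mean. The called genes separate between genotypes, whereas Bub1 and Mad1 overlap and Mis12 lies lower in SvbREP.

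Digestive serine proteases, the trypsin and chymotrypsin-like enzymes that enterocytes secrete into the lumen, gave 0 calls of 27 tested by edgeR and by limma voom. There were 2 by DESeq2 and 11 at an unadjusted p under 0.05, which held for 13% of all genes. In 24 of the 27 the log2 fold change was below zero, and the median was -1.28; over members tested in each fit it was -2.27 without SvbREP replicate 1 and -0.85 without control replicate 1. With the block 12 fell. Jon25Biii, of the Jonah protease family, had 200.2, 51.5 and 52.1 CPM in SvbREP and 822, 264 and 828 CPM in control. yip7, another protease gene, had 156, 106 and 66.1 CPM in SvbREP and 640.0, 184 and 210.2 CPM in control. Library number 1 was the highest in SvbREP for both genes, and for yip7 in control as well. For Jon25Biii number 3 was the highest in control but near number 2 in SvbREP, so its levels did not follow the number alike. Some members of the Jonah family are close copies of each other, so the split of reads between such members is uncertain. Without the block the log2 fold change was -2.64 for Jon25Biii (SE 0.82, adjusted p = 0.168) and -1.65 for yip7 (SE 0.67, adjusted p = 0.315). With the block it was -3.03 (adjusted p = 0.00758) and -1.55 (adjusted p = 0.0103). CG18180, another serine protease-like gene outside the list and singled out after its values were seen, had 60.9, 54.3 and 17.1 CPM in SvbREP and 255, 161 and 299.6 CPM in control (log2 fold change -2.41, adjusted p = 0.0489).

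Other digestive and metabolic genes gave no calls beyond a few detoxification genes. Over all genes tested 1.21% were called, and 13% had an unadjusted p under 0.05. Of 17 maltases, amylases and mannosidases, 16 genes of dietary lipid uptake, 18 of fat synthesis and storage and 14 of glycolysis, 0 were called by edgeR, DESeq2 or limma voom. With an unadjusted p under 0.05 there were 1, 1, 2 and 0; with the block Npc2e, a sterol-binding protein gene, fell. Their medians lay between -0.16 and 0.05, but that of the maltase list was -0.61 without SvbREP replicate 1 and 0.68 without control replicate 1. LManVI, a lysosomal mannosidase gene, averaged 126 ± 44.5 CPM in SvbREP and 173 ± 169.8 CPM in control, and Lsd-2, the perilipin gene of lipid droplets, 1167 ± 142 CPM in SvbREP and 1391 ± 275 CPM in control. The glycolytic genes Ald1 and Eno had log2 fold changes of 0.02 and -0.04, each with an SE of 0.14 to 0.15. Among 52 cytochrome P450 genes 1 fell, Cyp4d1, with 4.53, 3.32 and 1.87 CPM in SvbREP and 20.5, 8.98 and 22.1 CPM in control (log2 fold change -2.34, SE 0.52, adjusted p = 0.0489), and with the block Cyp6a17 and Cyp6d2 rose as well. Among 20 UDP-glycosyltransferases 1 rose, Ugt49B1, with 10.3, 10.3 and 13.7 CPM in SvbREP and 0.188, 0.382 and 1.30 CPM in control (log2 fold change 4.26, SE 0.63, adjusted p = 0.0067), and with the block Ugt36D1 fell. Of 26 glutathione S-transferases 0 were called by the 3 tools, with 2 at an unadjusted p under 0.05, and with the block GstS1 rose.

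Of 14 tested receptors for neuropeptides and transmitters, 3 rose (21.4%, against 1.21% of all genes called in either direction) and none fell. AstA-R1, a receptor for the allatostatin A peptides, had 157, 102 and 61.7 CPM in SvbREP, against 24.9, 14.9 and 23.6 CPM in control. AstA-R1 rose (log2 fold change 2.35, SE 0.31, adjusted p = 0.00303), while AstA, the gene of its ligand, fell. The nicotinic acetylcholine receptor subunit genes nAChRalpha4 and nAChRalpha6 rose too. nAChRalpha4 had 14.5, 25.9 and 22.1 CPM in SvbREP and 3.58, 3.06 and 4.16 CPM in control (log2 fold change 2.53, SE 0.48, adjusted p = 0.0248), and nAChRalpha6 had 18.9, 8.49 and 4.05 CPM in SvbREP and 2.07, 0.382 and 0.520 CPM in control (log2 fold change 3.36, SE 0.71, adjusted p = 0.0414). In contrast nAChRalpha5 had 0.800 to 1.85 CPM in SvbREP and 7.92 to 39.0 CPM in control (log2 fold change -3.83, SE 0.86, adjusted p = 0.0510), and with the block it and AstA-R2 fell. The median of the 14 was -0.57, and it was 0.08 when the 6 libraries were fitted alone.

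Of the lists of the epithelium itself, the brush border and apical actin list had 2 of 24 called (8.33%, against 1.21% of all genes). In it 8 had an unadjusted p under 0.05, which held for 13% of all genes. The septate junction and enterocyte identity lists gave no call. Among 24 genes of the brush border and apical actin, IRSp53, which encodes a membrane-bending adaptor of the actin cortex, rose, with raw counts of 184, 226 and 99 in SvbREP and 14, 14 and 15 in control. Its log2 fold change was 3.40 (SE 0.44, adjusted p = 0.00303). Cad87A, an apical cadherin gene, fell, with 66.4, 46.3 and 76.7 CPM in SvbREP and 119, 146 and 129.7 CPM in control (log2 fold change -1.06, SE 0.23, adjusted p = 0.0456). Of 27 septate junction and polarity genes 0 were called by the 3 tools and 3 had an unadjusted p under 0.05; their most abundant members, l(2)gl and Atpalpha, had log2 fold changes of -0.42 and -0.05. Of 13 enterocyte identity regulators 0 were called and 1 had an unadjusted p under 0.05, and GATAe, a GATA factor gene of the midgut, had 347 ± 29.3 CPM in SvbREP and 315 ± 33.0 CPM in control.

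Genes through which Svb shapes the embryonic epidermis were scarce. Of 16 listed, 11 were in the table and 6 were tested, since dy, dyl, neo, nyo and zye did not pass the filter on low counts. None was called by edgeR or limma voom, and DESeq2 called 1. Of the 6, 3 had an unadjusted p under 0.05, which held for 13% of all genes. The actin regulator genes WASp and sn had log2 fold changes of 0.35 (SE 0.38) and -1.30 (SE 0.51), and Cht2, a chitinase gene, of 1.64 (SE 0.50, adjusted p = 0.159, and 0.0249 with the block). Of 14 partners of Svb in its processing and in the Hippo pathway 0 were called by the 3 tools, and 1 had an unadjusted p under 0.05. Diap1, the inhibitor of apoptosis, had 338 ± 34.1 CPM in SvbREP and 369.8 ± 24.0 CPM in control. Of 10 apoptosis genes 0 were called by edgeR or limma voom, 2 by DESeq2, and hid, a cell death gene, fell with the block. Of 17 genes of chitin and the peritrophic matrix 11.8% were called, against 1.21% of all genes. Cpr51A, a cuticle protein gene, rose, with 28.8, 24.6 and 17.1 CPM in SvbREP and 9.05, 7.64 and 8.58 CPM in control (log2 fold change 1.49, SE 0.28, adjusted p = 0.0248). Cda5, a chitin deacetylase gene, fell (log2 fold change -1.82, SE 0.36, adjusted p = 0.0326). Among 25 Notch, EGFR, BMP and Wnt pathway genes 0 were called by edgeR or limma voom, 1 by DESeq2 and 5 at an unadjusted p under 0.05. E(spl)m8-HLH, a Notch target, was outside this list and rose from a low level, with 3.74 to 7.76 CPM in SvbREP and 0 to 1.04 CPM in control (log2 fold change 4.29, SE 0.91, adjusted p = 0.0414).

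Few immune and stress genes passed the test. Over all genes 1.21% were called and 13% had an unadjusted p under 0.05. Among 18 gut immunity genes Irc, an immune-regulated catalase gene, rose, with 16.5, 20.1 and 14.7 CPM in SvbREP and 3.39, 2.48 and 4.94 CPM in control (log2 fold change 2.26, SE 0.47, adjusted p = 0.0394), and with the block pirk and PGRP-SC2 fell. CPM ranges of the 18 did not overlap in 3 genes that were higher and 5 that were lower in SvbREP, against 10.5% and 10.1% of all genes. The JAK/STAT genes Stat92E and Socs36E had log2 fold changes of -0.20 and 0.02. Of 22 heat shock and endoplasmic reticulum stress genes 0 were called by the 3 tools and 2 had an unadjusted p under 0.05, and the chaperone gene Hsc70-4 averaged 6235 ± 288 CPM in SvbREP and 6193 ± 233 CPM in control; with the block Hsp70Ba fell. In the transporter list of 20, KCNQ, a voltage-gated potassium channel gene, was the 1 call, with 227 to 284 CPM in SvbREP and 440.3 to 489 CPM in control (log2 fold change -0.91, SE 0.16, adjusted p = 0.0195). Of 15 metal handling genes 0 were called by the 3 tools, with 1 at an unadjusted p under 0.05.

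Several large housekeeping families leaned to one side without a call. Of 77 cytosolic ribosomal protein genes 63 had a log2 fold change above zero, with a median of 0.17, and of 69 mitochondrial ribosomal protein genes 61 did, with a median of 0.31. For 64 genes of the respiratory chain and ATP synthase the count was 53 and the median 0.21, and for 30 proteasome subunits it was 28 and 0.24. Of 17 V-ATPase subunits, the proton pump of acidic compartments, 2 lay above zero, with a median of -0.10. None of these 257 genes was called by edgeR, DESeq2 or limma voom, where edgeR called 1.21% of all genes. At an unadjusted p under 0.05 there were 10, 7, 5, 2 and 2 of them, against 13% of all genes. With the block RpL8, mRpS17 and COX4 rose, each in its own family, and the V-ATPase gene Vha26 fell. The median of the cytosolic ribosomal proteins was 0.0017 and that of the respiratory chain 0.04 without SvbREP replicate 2; over all fits these medians reached 0.26 and 0.34. Over all genes 4402 of 8296 lay above zero (53.1%). RpL3 had 4462 to 4930 CPM in SvbREP and 3676 to 4123 CPM in control (log2 fold change 0.27, SE 0.12, adjusted p = 0.356).

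**Figure D4:**
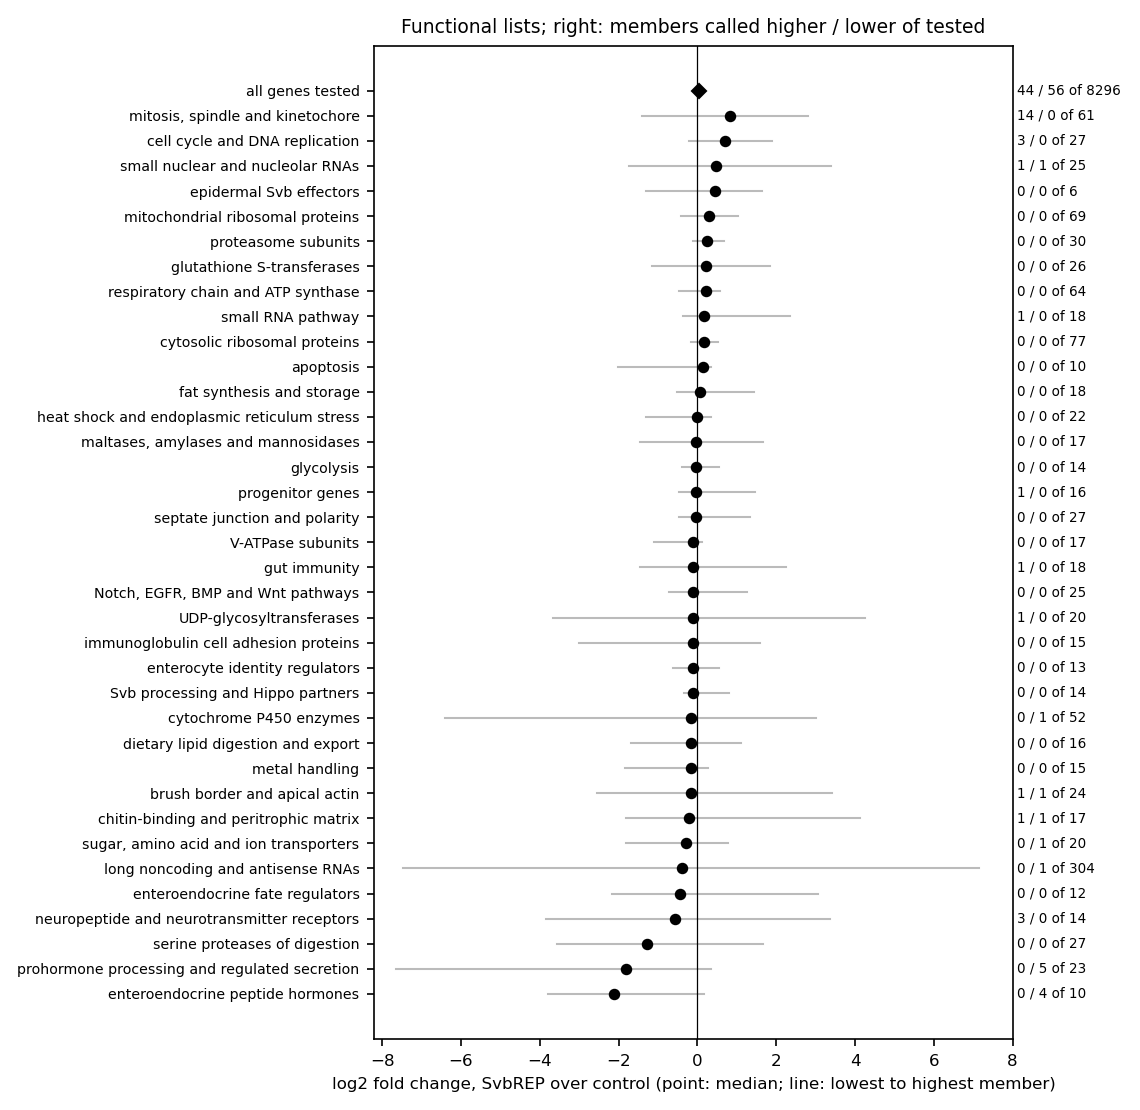
Median log2 fold change of SvbREP over control in each functional list (points), with a line from the lowest to the highest member, and the number of members called higher and lower of those tested at the right. Hormone and secretion genes have the lowest medians, at -2.10 and -1.81. The mitosis list, which was written after the called genes had been seen, has the highest, at 0.82. The diamond is the median of all genes.

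The largest rises included genes known from other tissues. blanks, which encodes a double-stranded RNA binding protein of the testis, had 102, 111 and 40 counts in SvbREP and 0, 1 and 2 counts in control. The depth-scaled ratio of summed counts was 75.3 (95% exact counting interval 25.5 to 367), with an adjusted p of 0.000909. shu, a cochaperone gene of the piRNA pathway, rose as the 1 call of 18 small RNA pathway genes, with 16.1, 11.3 and 9.97 CPM in SvbREP and 2.07, 1.53 and 3.90 CPM in control (log2 fold change 2.35, SE 0.38, adjusted p = 0.0132), and with the block spn-E, a piRNA helicase gene, rose too. The level of klhl10, a gene of sperm maturation that was singled out after its values were seen, was low, at 1.56 to 3.51 CPM in SvbREP and 0 to 0.188 CPM in control (adjusted p = 0.0414). AGO1 and AGO2, which carry small RNAs, had log2 fold changes of -0.32 and 0.02.

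DIP-alpha, an immunoglobulin cell surface protein gene of the nervous system, was one of the most abundant genes that rose. It had 278, 181 and 179.5 CPM in SvbREP, against 38.3, 40.9 and 44.4 CPM in control, a tight control group and no overlap. Its log2 fold change was 2.37 (SE 0.24, adjusted p = 0.000622), and its exons overlap those of CG2875 and ppk8. In the list of 15 other immunoglobulin adhesion proteins 0 were called by edgeR or limma voom and 2 by DESeq2. At an unadjusted p under 0.05 there were 3, against 13% of all genes. Dscam1 and robo2 had log2 fold changes of -0.08 and -0.16, and tutl fell with the block. Among abundant genes kug, the atypical cadherin Fat2, had 933 ± 44.5 CPM in SvbREP and 622 ± 24.2 CPM in control (log2 fold change 0.58, SE 0.13, adjusted p = 0.0489). CalpB, a calpain protease gene, had 733 ± 154 CPM in SvbREP and 444 ± 47.0 CPM in control (log2 fold change 0.72, SE 0.16, adjusted p = 0.0456).

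The gene with the largest fitted fall, CG6912, lies in a group of 3 overlapping genes on 3R that all fell. CG6912 (chr3R:15135138-15137004), asRNA:CR45600 (chr3R:15136985-15140121) and CG3984 (chr3R:15137148-15139007) share exon positions, so their counts are not independent and their shares of the reads are uncertain. CG6912 had 0, 2 and 0 counts in the SvbREP libraries, against 407, 434 and 260 counts in the control libraries. The depth-scaled ratio of SvbREP over control was 0.00162 (95% exact counting interval 0.000196 to 0.00587), with an adjusted p of 9.23e-06. CG3984 had 0 to 0.667 CPM in SvbREP and 12.5 to 16.1 CPM in control (log2 fold change -5.03, SE 0.67, adjusted p = 0.00303). CR40190, a pseudogene on 2R singled out after its values were seen, had 0 counts in all SvbREP libraries, at least 7.92-fold lower than in control with the floor of 3 counts per library (adjusted p = 0.00642).

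Further large falls fell into a uniform and a variable kind. CG7120 had 2.67, 2.40 and 1.87 CPM in SvbREP and 36.2, 25.6 and 32.5 CPM in control, with a narrow range in each genotype (log2 fold change -3.73, SE 0.47, adjusted p = 0.00267). CG12057 had 11.6, 4.62 and 4.99 CPM in SvbREP and 340.4, 92.9 and 563 CPM in control (log2 fold change -5.48, SE 1.12, adjusted p = 0.0374), where control replicate 2 was the lowest. CG34386 had 19.7, 31.2 and 58.0 CPM in SvbREP and 170.4, 696 and 367 CPM in control (log2 fold change -3.53, SE 0.60, adjusted p = 0.0171), in the library order of the hormone genes. Meltrin and uex, both abundant, fell by less and with a narrower spread in control. Meltrin, an ADAM metalloprotease gene, had 615, 566 and 728 CPM in SvbREP and 1028, 1064 and 1080 CPM in control (log2 fold change -0.73, SE 0.14, adjusted p = 0.0262). uex, a magnesium transporter gene, had 288 ± 20.1 CPM in SvbREP and 447 ± 14.9 CPM in control (log2 fold change -0.64, SE 0.13, adjusted p = 0.0408).

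Long noncoding and antisense RNAs leaned down as a class, with 1 call. Of 304 tested 75 lay above zero (24.7%, against 53.1% of all genes), and the median was -0.38. By edgeR asRNA:CR45600 was the only one called (0.329%, against 1.21% of all genes). With the block 5 were called, all lower, where 2.11% of all genes fell. Many are scarce: 216 of the 304 were in the lowest 25% of genes by level, where their median was -0.43 against -0.07 for the other genes, and in the highest 25% 15 of them had a median of -0.22 against -0.003. Of 25 small nuclear and nucleolar RNAs 20 lay above zero (80%), with a median of 0.47, and 8% were called. snRNA:U12, of the minor spliceosome, rose, with 88.0, 78.3 and 100.1 CPM in SvbREP and 34.3, 34.0 and 35.6 CPM in control (log2 fold change 1.36, SE 0.23, adjusted p = 0.0178), and snoRNA:Psi18S-301 fell, with 17.9 ± 5.92 CPM in SvbREP and 59.6 ± 20.2 CPM in control (log2 fold change -1.73, SE 0.33, adjusted p = 0.0259). With the block the snRNA genes U5:34A, U5:63BC and U11 rose too.

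The same genes were set beside the other genotypes, which were compared with the same control libraries. Among the hormones, AstC averaged 66.7 CPM in SvbREP, 104 CPM in SvbACT, 188 CPM in the libraries labelled svb RNAi and 648 CPM in control. CCHa1 averaged 6.55 CPM in SvbREP, 17.3 CPM in SvbACT, 47.4 CPM in the libraries labelled svb RNAi and 88.6 CPM in control. Syt4 averaged 0.0889 CPM in SvbREP, 0.0378 CPM in SvbACT, was listed at 0 in the libraries labelled svb RNAi and averaged 28.6 CPM in control. CG6912 averaged 0.123 CPM in SvbREP, was listed at 0 in SvbACT, and averaged 52.3 CPM in the libraries labelled svb RNAi and 75.7 CPM in control. For the mitotic gene asp the means were 47.0 CPM in SvbREP, 51.4 CPM in SvbACT, 69.6 CPM in the libraries labelled svb RNAi and 16.6 CPM in control. The means of Syt4 and asp thus lay on the same side of control in all 3 crosses to a transgene stock, while CG6912 was near 0 with either Svb form. The mean of ovo itself was 9.40 CPM with the svb RNAi label, not below the 5.09 CPM of control.

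Tested directly, SvbREP differed from SvbACT in 6 genes (0.0723%), 2 higher (0.0241%) and 4 lower (0.0482%) in SvbREP, and none of the 100 genes called against control was among them. Of the 100, 20 had an unadjusted p under 0.05 against SvbACT, 6 were called by DESeq2, 3 with the block (Cyp4d1, CG12057 and nAChRalpha4) and 0 by limma voom. nAChRalpha4 averaged 20.8 CPM in SvbREP, 4.54 CPM in SvbACT and 3.60 CPM in control. CG42524 was one of the 2 genes higher in SvbREP, with 129 ± 82.9 CPM in SvbREP and 8.99 ± 3.24 CPM in SvbACT, beside 36.4 ± 26.8 CPM in control (SvbREP over SvbACT log2 fold change 3.83, SE 0.56, adjusted p = 0.0175). Against control CG42524 was not called (edgeR adjusted p = 0.113), but it was called higher with the block (edgeR adjusted p = 0.00259) and by the authors. piwi, a germ line Argonaute gene, was lower, with 21.1 ± 5.78 CPM in SvbREP and 78.5 ± 15.5 CPM in SvbACT, beside 25.5 ± 10.8 CPM in control (log2 fold change -1.88, SE 0.30, adjusted p = 0.0365). The number of genes called between the 2 forms was 7 without SvbREP replicate 1, 1 without SvbREP replicate 2, 0 without SvbREP replicate 3 and 32 with the block (0.386%).

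Against the libraries labelled svb RNAi, 215 genes differed (2.59%), 175 higher (2.11%) and 40 lower (0.482%) in SvbREP, and 19 of the 100 were among them. With the block 471 differed (5.68%). They included blanks, IRSp53, Irc, nAChRalpha6 and DIP-alpha, whose means were higher in SvbREP than in both the libraries labelled svb RNAi and control. IRSp53 averaged 32.4 CPM in SvbREP, 20.98 CPM in SvbACT, 1.45 CPM in the libraries labelled svb RNAi and 3.07 CPM in control. They also included CCHa1, CG6912, CG12057 and bru3, whose means were lower in SvbREP than in both. CG10960 was the exception in order, with 81.9 CPM in SvbREP, 36.1 CPM in the libraries labelled svb RNAi and 153 CPM in control. AstA-R1 had a mean of 107 CPM in SvbREP, 137 CPM in SvbACT, 229 CPM in the libraries labelled svb RNAi and 21.1 CPM in control, so that its level was highest with the svb RNAi label.

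**Figure D5:**
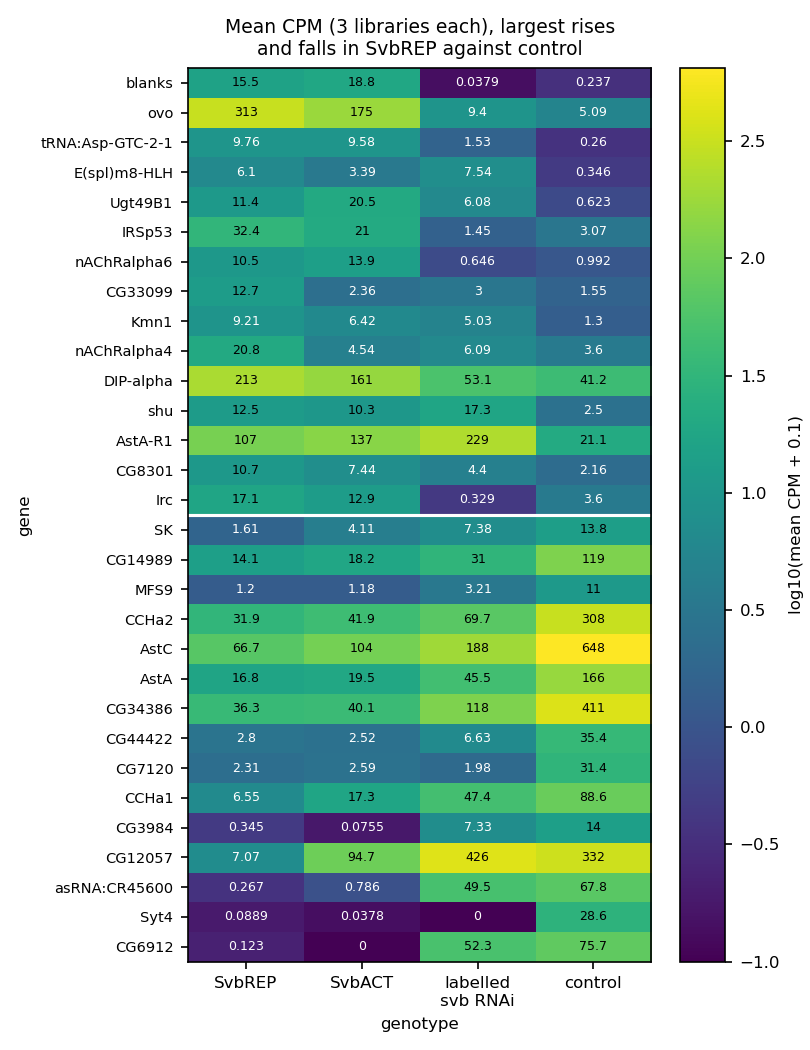
Mean CPM of the genes with the largest rises (above the white line) and the largest falls (below it) in SvbREP against control, with a column for each genotype and colour on a log10 scale of CPM plus 0.1. blanks, IRSp53 and nAChRalpha6 are high with either Svb form and low in the libraries labelled svb RNAi and in control, and Syt4 and CG7120 are low in all columns but control.

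The called genes were spread over the chromosome arms, with 20 of 1385 tested genes on X (1.44%), 12 of 1451 on 2L (0.827%), 20 of 1693 on 2R (1.18%), 17 of 1562 on 3L (1.09%), 28 of 1994 on 3R (1.40%) and 0 of 70 on 4. Tested genes that follow each other in order of start position were both called in 4 pairs, 3 of them in the same direction. These 3 pairs share exon positions. The exception was asp (higher) and AstA (lower), neighbours on 3R without shared exons. This order does not pair DIP-alpha (3507245 to 3571649) with AstA-R1 (3574536 to 3666724). Both lie close together on X, share no exon positions with each other and rose. Of the 100 called genes 93 are annotated as protein coding, and 19 share exon positions with another gene of the table, so a part of their counts is uncertain in origin.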

How the data were processed

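RNA of sorted midgut cells was sequenced, and the deposited table gives read counts per gene for 12 libraries, 3 per genotype, which the authors made by aligning single reads to dm6 with STAR 2.5.2b and counting with HTSeq 0.6.0, per the submitters' processing notes. The strand setting and annotation are not given in the sources used here, so reads of a gene and an antisense partner cannot be told apart. The same deposited table holds the authors' call for each gene as a score of -1, 0 or 1, made with edgeR per those notes. From the counts, genes were tested with edgeR 4.0.16 in R 4.3.3: low counts were removed with filterByExpr (minimum count 10), libraries were scaled by TMM, and a quasi-likelihood model with genotype as its term was fitted over all 12 libraries, with p-values adjusted over all genes by the Benjamini-Hochberg method at 0.05. Every adjusted p comes from that test unless another tool is named. The code was tested on simulated data. Depth ranged from 3355847 to 7652286 counts in the 6 libraries, and intervals cover counting error only.

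Library numbers were taken from the sample descriptions. For the libraries labelled svb RNAi the sample titles number the replicates differently, and the descriptions were used. Deviations from the genotype means of libraries with the same number correlated at 0.405, 0.260 and 0.132, all above 0.1, the limit set for treating numbers as pairs. Different numbers gave -0.310 to 0.141, with SvbREP 2 and control 3 at 0.141 and SvbREP 3 and control 2 at 0.114, so numbers 2 and 3 are less distinct than number 1. Alternatives were a replicate block, other scalings and filters, the 6 libraries alone, DESeq2 1.42.0, limma 3.58.1 (voom) and leaving out each library. Named genes are ovo, the 15 largest rises and falls at 5 CPM or more, the 5 most abundant and the 5 smallest p, up to 4 called members of each list and the 2 most abundant members of lists with under 2 calls; other genes of the text, as the mitosis list, were chosen after their values were seen. The members and lists were chosen with earlier results of these data known. Gene positions and overlaps come from the BDGP6.54 annotation, which uses dm6 coordinates.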

Additional observations from a re-analysis of the deposited data

How the results depend on the processing

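Of SvbREP against control, 100 genes were called; the count was 47 with the 6 libraries alone, 295 with the replicate block, 331 with both, 275 with DESeq2, 36 with limma voom, and 18 to 98 with 1 library left out. SvbREP against SvbACT, with 6, gave 32 with the block, 41 with DESeq2, 17 with limma voom and 0 to 7 with 1 library left out, and SvbREP against the libraries labelled svb RNAi, with 215, gave 471, 436 with DESeq2 and 108 to 195 with 1 left out. The log2 fold change of ovo was 5.25 to 7.46 in all 16 fits. Among the lists and named genes, the replicate block changed no other call than those given with the results. Of 47 called named genes beside ovo, 25 kept their call with the 6 libraries, 17 with limma voom and 13 to 31 with 1 library left out. The cause of these differences was not tested.

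Some uncalled genes near zero changed sign. Hsc70-4 had -0.00406 with RLE, -0.0045 unfiltered, -0.00827 at 10 CPM or more, -0.00471 with the 6 libraries, -0.00543 with these and the block and -0.00407 with DESeq2. LManVI had 0.11 with the block, and Socs36E -0.0243 with the block in 6 libraries and -0.00577 with limma voom. With 1 library left out the ranges were -0.0341 to 0.0405 for Hsc70-4, -0.86 to 0.73 for LManVI, -0.21 to 0.21 for Socs36E, -0.91 to 0.29 for Mal-A1, -0.143 to 0.795 for WASp, -0.21 to 0.026 for Dscam1, -0.22 to 0.058 for Npc2a, -0.16 to 0.053 for Eno, -0.065 to 0.079 for Ald1, -0.23 to 0.023 for Ugt303B3, -0.0398 to 0.118 for AGO2, -0.018 to 0.21 for GstE12, -0.33 to 0.016 for Egfr, -0.082 to 0.23 for ATPsynC, -0.21 to 0.00504 for lncRNA:CR42862, -0.39 to 0.21 for lncRNA:Hsromega, -0.16 to 0.094 for Hsp83 and -0.29 to 0.022 for Sox100B. Depth limits genes near the floor of 3 counts, where differences are not detectable.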
